A study of Macaca mulatta with 6 samples.

Results

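Motile cilia genes of rhesus monkey (Macaca mulatta) cortex were followed here, a group of 78 genes out of 16595 tested and 23191 listed. They were taken by name: FOXJ1, RFX2, RFX3, HYDIN and a further set of named cilium genes, together with each gene whose symbol starts with DNAH, DNAI, DNAAF, CFAP, DRC or SPAG. Their mean over the 6 libraries had to reach 10 normalized counts, that is, reads divided by a size factor per library. Of 85 such genes in the table, 78 met that minimum and 7 did not. The names were picked after cilium genes had been seen to be higher with morphine. The morphine to saline differences of the 78 genes are therefore a description, and no test of them is offered as evidence.

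The measurements are polyadenylated RNA from cortical neurons of male monkeys 3 to 4 years old. The morphine group gave 3 libraries and the saline group 3. Morphine, an opioid, was given subcutaneously 3 times daily over 90 days, with a dose that began at 3 mg/kg and stood at 15 mg/kg by day 29. Saline animals received the same injection schedule without the drug. The protocol speaks of 4 monkeys, 2 per group, so 2 or all 3 of the libraries in a group must stem from the same monkey. The sample descriptions carry a single code per group, and which library came from which animal is not settled. The spread between libraries may thus be technical, p-values over libraries are too small as tests over animals, and treatment cannot be told apart from differences between animals.

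A motile cilium is built on an axoneme, a ring of doublet microtubules around a central pair. Outer and inner dynein arms on the doublets make them slide, radial spokes and the central apparatus regulate that sliding, and nexin links turn it into bending. In the brain, motile cilia stand in tufts on the ependymal cells that line the ventricles and move cerebrospinal fluid. FOXJ1 is the main transcription factor of motile cilium genes, and RFX factors act with it at many of their promoters. Primary cilia, single and mostly immotile, are carried by neurons and astrocytes and share the intraflagellar transport machinery but largely lack dynein arms, spokes and a central pair.

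Recovered depth was 31238653 to 36345095 reads per library. In libraries labelled as neurons, glial markers were abundant. The summed level of 14 pan-neuronal markers was 476581 to 479600.2 normalized counts in morphine libraries and 547838 to 557436 in saline libraries, and 6 of them fell and 3 rose. Of 11 astrocyte markers measured, 6 fell and 2 rose, with sums of 265549 to 268414 normalized counts in morphine libraries and 316304 to 321656 in saline libraries. Of 7 microglia markers, 5 rose and 2 fell, with sums of 9425 to 9849 normalized counts in morphine libraries and 6497 to 6914 in saline libraries. Of 10 oligodendrocyte markers, 4 rose and 3 fell, with sums of 269316 to 271858 normalized counts in morphine libraries and 262946 to 267408 in saline libraries. Of 14 endothelial and mural markers, 4 rose and 5 fell, with sums of 21321 to 26862 normalized counts in morphine libraries and 21927 to 23411 in saline libraries. None of these markers was at 0 in all libraries. The shares over all tested genes were 12.9% that rose and 15.0% that fell. The endothelial and mural sums overlapped between the groups, and the other 4 did not. Without MBP, its gene with the most counts, the oligodendrocyte sum was lower with morphine (66350.4 to 68445 normalized counts in morphine libraries and 70922 to 74273 in saline libraries), and without SLC2A1 the endothelial and mural sum was too (16464 to 16897 normalized counts in morphine libraries and 17481 to 18138 in saline libraries). The part of these cell types in the values below was not tested. Fewer cells of a type and less RNA per cell cannot be told apart in bulk RNA.

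Cilium genes were higher in morphine libraries more often than lower, but they did not move as a block. FOXJ1, the inner arm heavy chain genes DNAH2, DNAH3 and DNAH10, and the central apparatus genes HYDIN and CFAP54 were well above saline. Levels of RFX2, RFX3, DNAI1, DNAH5, CCDC39 and DNAAF2 overlapped between the groups, and the central apparatus gene SPAG17 was far lower with morphine. The median log2 fold change of the 78 genes was 0.29, with quartiles at -0.07 and 0.90, beside 0.01, -0.26 and 0.26 over all tested genes. The sign was positive in 55 genes and negative in 23, and over all tested genes it was positive in 8404 and negative in 8191. More than 2 fold higher with morphine were 14 of the 78 genes, and 771 of all 16595. More than 2 fold lower were 2 of the 78 and 503 of all. Among the higher genes, CROCC2, CFAP161, DRC7, CFAP77 and CFAP96 had a saline mean under 10 and met the minimum through their morphine libraries. SPAG17, among the lower, met it through saline. For these genes the minimum itself favours a large fold change. Fold changes are morphine over saline, taken on log2(value + 1). The added 1 shrinks changes of low genes, and because logs are averaged, a library near 0 weighs more than in a ratio of group means.

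In limma at an adjusted p under 0.05, 19 of the 78 genes rose and 5 fell. Over all tested genes 12.9% rose and 15.0% fell, 27.9% in either direction. Because the names were chosen on this contrast, nothing is read from that difference. All 3 morphine libraries lay above all 3 saline libraries for 30 of the 78 genes, where the share over all genes was 24.1%, and below them for 7, where it was 24.6%. The genes that rose were FOXJ1, DNAH2, DNAH3, DNAH9, DNAH10, DNAAF3, DNAAF5, DRC3, RSPH1, RSPH4A, CFAP91, HYDIN, CFAP54, CFAP100, CFAP157, CFAP161, SPAG5, SPAG8 and CROCC2. Those that fell were SPAG9, SPAG16, SPAG17, CFAP36 and CFAP58. Of these 24 calls, 15 passed in each of the 6 fits that leave out 1 library. Without morphine replicate 2, 12 of the 78 genes rose and 4 fell. Over all tested genes 1072 rose and 1464 fell in that fit, beside 2143 and 2488 with all 6 libraries.

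The remaining 9 calls were lost when single libraries were removed. In limma, the adjusted p of HYDIN was 0.0808, 0.0808 and 0.0624 with morphine library 1, 2 or 3 removed, and 0.0729 with saline library 3 removed. That of CFAP161 was 0.054, 0.0582 and 0.0582 after removal of each morphine library in turn and 0.0533 after removal of saline library 2. DNAAF5 had 0.118, 0.11, 0.102 and 0.0832 after the same removals. CFAP54 reached 0.0508 when morphine library 2 was removed and passed in the other fits. DNAH3 reached 0.0552, 0.0582 and 0.056 when morphine library 2, saline library 2 or saline library 3 was removed. SPAG16 reached 0.0521, 0.0542 and 0.0505 when morphine library 2, saline library 1 or saline library 2 was removed. RSPH4A passed only with saline library 2 removed. Its adjusted p was 0.0669, 0.113 and 0.106 with each morphine library removed in turn, 0.116 with saline library 1 removed and 0.108 with saline library 3 removed. RSPH1 and SPAG8 passed in none of the 6 fits. Their adjusted p ran between 0.0658 (saline library 2 removed) and 0.125 (morphine library 3 removed) for RSPH1, and between 0.0539 (saline library 3 removed) and 0.102 (saline library 2 removed) for SPAG8. With all 6 libraries, RSPH1 did not pass in DESeq2, edgeR or limma with an intensity trend (adjusted p = 0.158, 0.0891 and 0.0869).

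**Figure D1:**
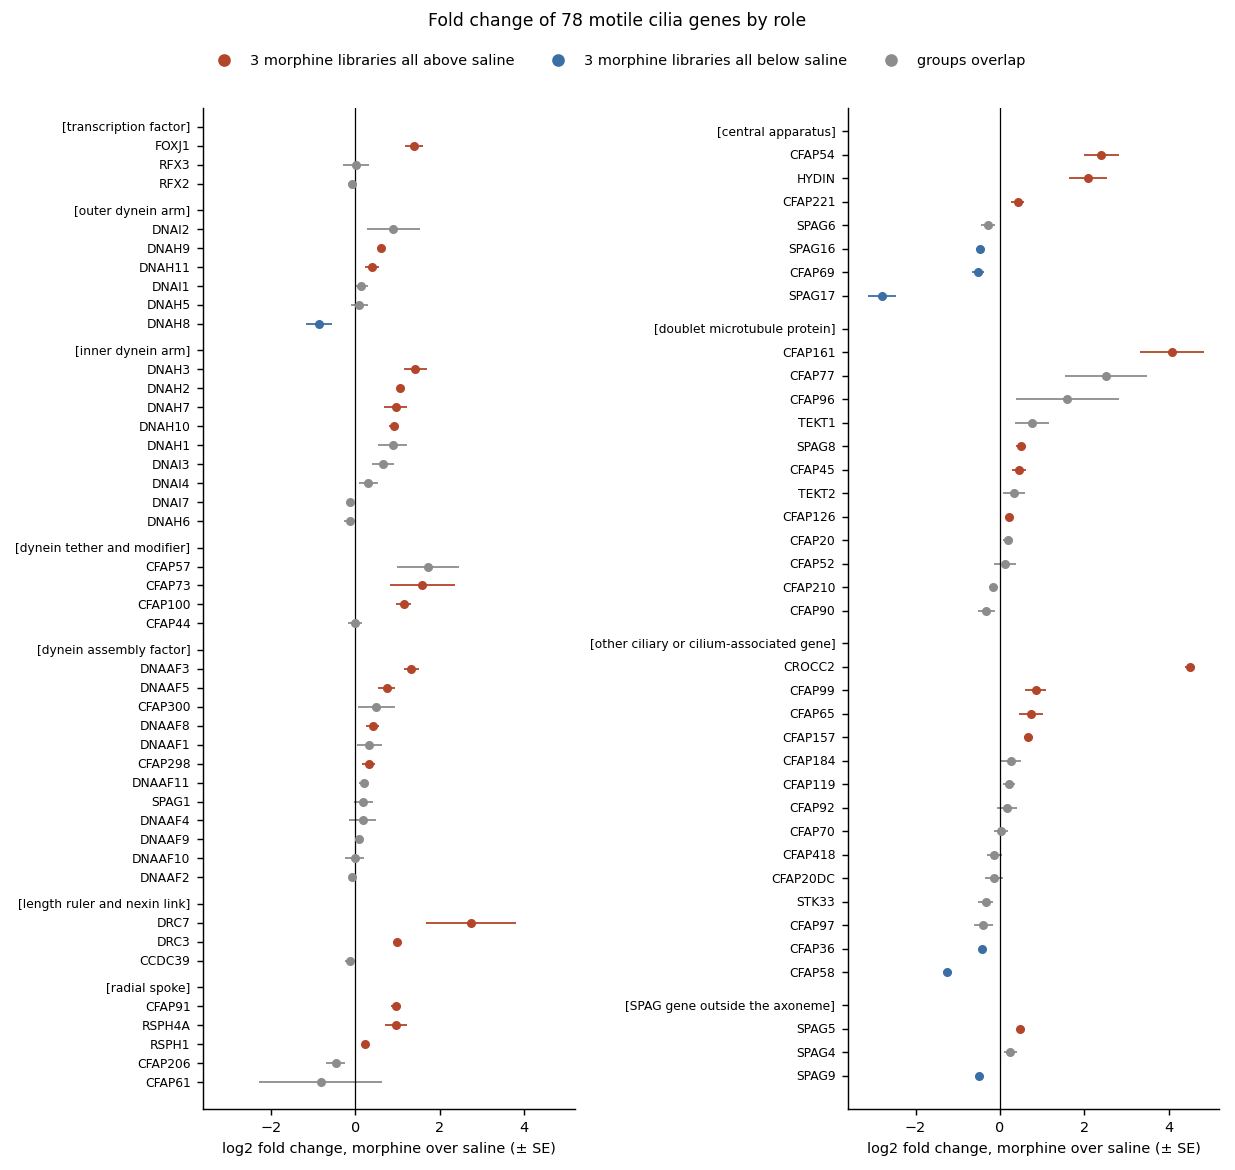
Log2 fold change, morphine over saline, of each of the 78 genes (point, with its standard error) grouped by role. All 3 morphine libraries lay above saline for 30 genes and below saline for 7, and the central apparatus holds genes far apart, CFAP54 at 2.40 and SPAG17 at -2.80; CROCC2 had no saline reads, so its point depends on the pseudocount.

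Among the transcription factors, FOXJ1 stood apart from the RFX genes. FOXJ1 (ENSMMUG00000003533) had 263, 263 and 189 normalized counts in morphine libraries, against 84.9, 112 and 72.8 in saline libraries. Every morphine library was above every saline library, and the log2 fold change was 1.40 ± 0.213 (SE, n = 3 libraries per group). RFX2, which drives cilium genes with FOXJ1, had 782, 735 and 675 normalized counts with morphine and 735, 707 and 868 with saline, a log2 fold change of -0.07 ± 0.105. RFX3, needed for nodal and ependymal cilia in mouse, had 113, 90.8 and 56.7 with morphine and 108, 71.2 and 72.8 with saline. Both RFX genes overlapped between the groups. MCIDAS, which starts the multiciliated cell programme, was below the minimum: it had 0, 0 and 7 reads in morphine libraries and 0 in each saline library, and up to 3 reads would go unseen at a count of 0.

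**Figure D2:**
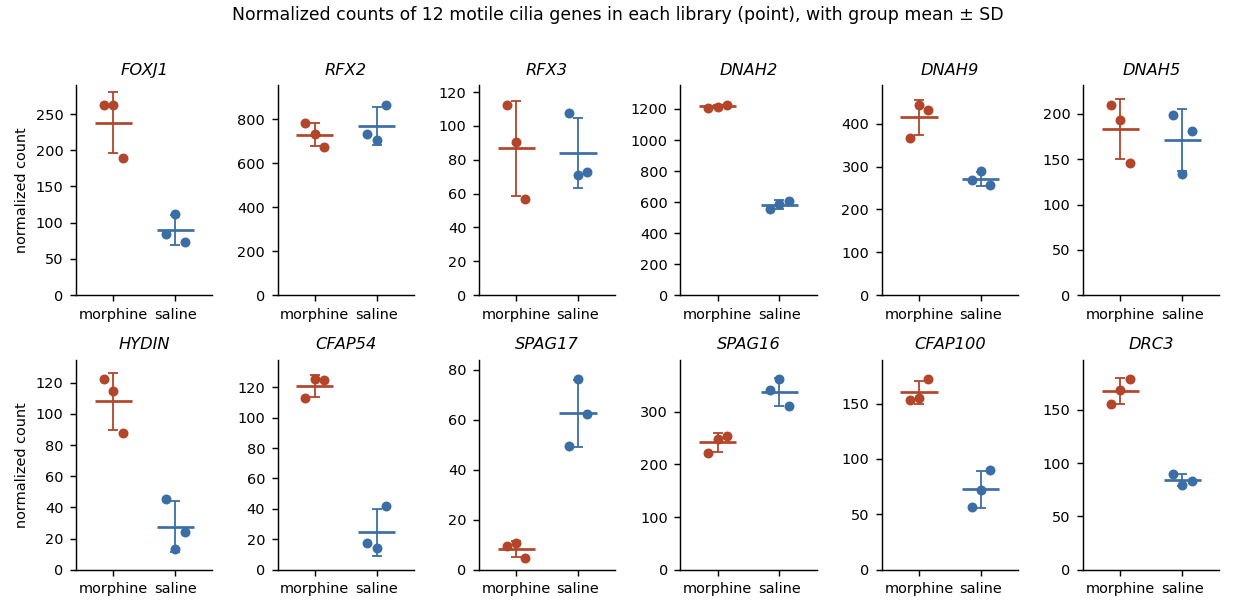
Normalized counts of 12 motile cilia genes in each library (points; bars are group means ± SD, n = 3). FOXJ1, DNAH2, DNAH9, HYDIN, CFAP54, CFAP100 and DRC3 lie higher in morphine libraries and SPAG16 and SPAG17 lower, while RFX2, RFX3 and DNAH5 overlap.

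Of the 6 outer dynein arm genes, 2 were higher in all morphine libraries, 1 was lower and 3 overlapped, beside 24.1% higher and 24.6% lower over all genes. DNAH9, a heavy chain of the outer arm, had 368, 445 and 432 normalized counts in morphine libraries and 268, 289 and 256 in saline libraries, a log2 fold change of 0.61 ± 0.0965 (SE, n = 3 libraries per group). Its groups did not overlap. DNAH5, the heavy chain most often mutated in human primary ciliary dyskinesia, had 210.4, 193 and 146 with morphine and 199, 133 and 181 with saline. DNAI1, an intermediate chain, had 6089, 6686 and 6968 with morphine and 4854, 6898 and 6244 with saline. For both genes the ranges overlapped, and the log2 fold changes were 0.10 ± 0.21 and 0.15 ± 0.147. DNAH8, a close relative of DNAH5 known from the sperm tail, ran the other way: 148, 152 and 91.3 normalized counts with morphine lay below 214, 174 and 324 with saline, although saline library 3 was much higher than saline libraries 1 and 2. DNAH11 was higher in all morphine libraries (184, 129.8 and 127) than in saline (116.4, 110.3 and 100.2), and the intermediate chain DNAI2 overlapped, with 59.5, 50.8 and 11.5 with morphine against 15.8, 20.05 and 15.8 with saline.

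Of the 9 inner dynein arm genes, 4 were higher in all morphine libraries, none was lower in all, and 5 overlapped. The shares over all genes were 24.1% higher and 24.6% lower. DNAH2, a heavy chain of the inner arm, had 1208, 1216 and 1229 normalized counts in morphine libraries and 554, 589 and 607 in saline libraries. Its log2 fold change was 1.06 ± 0.0558 (SE, n = 3 libraries per group), with replicates close together in both groups. DNAH10, its partner heavy chain, was at 199.8, 157 and 151 with morphine and 95.7, 86.2 and 83.3 with saline. DNAH3 was at 43.6, 52.7 and 75.9 with morphine and 26.6, 17.0 and 17.9 with saline, and DNAH7 at 131, 103 and 71.1 with morphine and 43.4, 46.1 and 63.3 with saline. These 4 genes did not overlap between the groups, with log2 fold changes of 1.06, 0.92, 1.43 and 0.96. DNAH1 had 206, 169.8 and 278 with morphine and 90.8, 90.2 and 184 with saline, where saline library 3 reached into the morphine range. DNAH6 (141, 173 and 145 with morphine against 186, 147 and 172 with saline) and the accessory gene DNAI7 (486, 473 and 527 with morphine against 548, 507 and 555 with saline) overlapped and had negative fold changes of -0.13 and -0.12. DNAI3 and DNAI4, intermediate chains, had log2 fold changes of 0.65 and 0.31 with overlapping groups.

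Genes known in Chlamydomonas to hold or modify inner dyneins included some large differences. CFAP100 had 153, 155 and 172 normalized counts in morphine libraries and 56.2, 72.2 and 89.6 in saline libraries, a log2 fold change of 1.15 ± 0.178 (SE, n = 3 libraries per group). CFAP73, which forms a complex with CFAP100 in that alga, had 184, 199 and 208 with morphine and 87.8, 19.0 and 157 with saline. Its groups did not overlap, but saline library 2 was far below the other saline libraries. CFAP57 had 36.1, 19.97 and 49.003 with morphine and 4.93, 28.1 and 5.27 with saline and overlapped. CFAP44, part of a tether at the base of an inner arm, overlapped as well, with 85.02, 71.7 and 71.1 with morphine against 64.1, 70.2 and 97.0 with saline.

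Dynein assembly factors fold and join the arms in the cytoplasm before their transport into the cilium. DNAAF3 had 188, 195 and 163 normalized counts in morphine libraries and 74.0, 56.1 and 87.5 in saline libraries, a log2 fold change of 1.34 ± 0.18 (SE, n = 3 libraries per group). DNAAF5 had 1145, 1071 and 1045 with morphine and 483, 717 and 788 with saline, with saline library 1 low. Neither gene overlapped between the groups. DNAAF2 (692, 729.9 and 617 with morphine against 726, 721 and 679 with saline) and DNAAF9 (4088, 4727 and 3926 with morphine against 3951, 4121 and 3863 with saline) overlapped, with log2 fold changes of -0.06 and 0.09. CFAP298 was higher in each morphine library (1087, 1086 and 1523) than in any saline library (1022, 926 and 968), and so was DNAAF8 (190.2, 258 and 277 with morphine against 167, 186 and 182 with saline). DNAAF1, DNAAF4, DNAAF10, DNAAF11, SPAG1 and CFAP300 overlapped between the groups. None of the 12 assembly factor genes was lower in all morphine libraries, beside 24.6% of all tested genes.

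Of the genes for the length ruler and nexin links, DRC3 was higher in morphine libraries and CCDC39 was not. DRC3, a subunit of the nexin-dynein regulatory complex, had 155, 169 and 179 normalized counts with morphine and 89.8, 79.2 and 83.3 with saline, a log2 fold change of 0.99 ± 0.0811 (SE, n = 3 libraries per group). CCDC39, which with CCDC40 sets the axonemal repeat, had 375, 349.5 and 419 with morphine and 454, 437 and 355 with saline. DRC7 had 21.3, 34.5 and 18.3 with morphine and 1.97, 16.0 and 0 with saline. Its groups did not overlap, yet they came close, and the saline values were widely spread. CCDC40 was not analysed here.

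Radial spoke genes likewise differed among themselves. RSPH4A, a spoke head gene, had 82.9, 127 and 98.01 normalized counts in morphine libraries and 46.4, 70.2 and 41.1 in saline libraries, a log2 fold change of 0.97 ± 0.256 (SE, n = 3 libraries per group). CFAP91, at the spoke base, had 282, 247 and 249.8 with morphine and 112, 146 and 140.3 with saline, a log2 fold change of 0.97 ± 0.126. The spoke head gene RSPH1 had 513, 479 and 512 with morphine and 408, 447 and 428 with saline, a small difference without overlap (log2 fold change 0.23 ± 0.0617). CFAP206 had 53.1, 59.9 and 48.0 with morphine and 87.8, 86.2 and 52.7 with saline, and CFAP61 26.6, 0 and 25.9 with morphine and 13.8, 8.02 and 29.5 with saline. Both overlapped, and the negative log2 fold change of CFAP61, -0.82, was 0.77 without morphine replicate 2, the library at 0. In the authors' deposited table the log2 fold change of CFAP61 was 0.03. RSPH9 and ROPN1L were not analysed here.

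The central apparatus had genes far apart in both directions. HYDIN, a large protein of the central pair whose loss causes hydrocephalus in mouse, had 122, 114 and 87.4 normalized counts in morphine libraries and 45.4, 13.0 and 24.3 in saline libraries. CFAP54 had 113, 125 and 125 with morphine and 17.8, 14.0 and 42.2 with saline. Neither overlapped, and the log2 fold changes were 2.09 ± 0.454 and 2.40 ± 0.408 (SE, n = 3 libraries per group). SPAG17 (ENSMMUG00000008519), a central apparatus protein too, was opposite, with 9.56, 10.9 and 4.80 with morphine and 49.3, 76.2 and 62.2 with saline. In reads that is 9, 12 and 5 with morphine and 50, 76 and 59 with saline, and the log2 fold change was -2.80 ± 0.322. SPAG16, an SPAG17 partner, had 222, 249 and 255 with morphine and 340.4, 362 and 310.1 with saline, a smaller difference in the same direction (log2 fold change -0.48 ± 0.0886). CFAP69 was lower in all morphine libraries (391, 357 and 468) than in saline (615, 627 and 495). SPAG6 overlapped (441, 356 and 382 with morphine against 406, 592 and 461 with saline), and CFAP221 was higher in all morphine libraries (414, 496 and 372 with morphine against 273, 359.8 and 322 with saline).

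Proteins in or on the wall of the doublet microtubules had no gene that was lower in all morphine libraries, beside 24.6% of all genes. CFAP161, a protein inside the doublet, had 25.5, 29.1 and 34.6 normalized counts with morphine and 4.93, 0 and 0 with saline. In reads these were 24, 32 and 36 with morphine and 5, 0 and 0 with saline, so the fold rests on 5 saline reads. SPAG8 had 242, 259.6 and 307 with morphine and 191, 168 and 212 with saline, without overlap. The tektin genes, whose filaments run in the doublet, overlapped: TEKT1 had 117, 182 and 101 with morphine and 70.1, 50.1 and 124 with saline, and TEKT2 149, 239 and 283 with morphine and 151, 166 and 201 with saline. CFAP20, at the inner junction of the doublet, had 1116, 959.6 and 1236 with morphine and 1037, 889 and 959 with saline, again overlapping. So did CFAP90 and CFAP210, with log2 fold changes of -0.32 and -0.16, and CFAP52, CFAP77 and CFAP96. CFAP45 and CFAP126 were higher in all morphine libraries, by 0.45 and 0.22 on the log2 scale.

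The names also take in genes that are not confined to motile cilia. SPAG5, a protein of the mitotic spindle, had 2503, 2415 and 2436 normalized counts in morphine libraries and 1778, 1804 and 1688 in saline libraries, a log2 fold change of 0.48 ± 0.0521 (SE, n = 3 libraries per group). SPAG9, a scaffold that links motor proteins to vesicles, had 2569, 2641 and 2877 with morphine and 3746, 4010.3 and 3722 with saline, a log2 fold change of -0.51 ± 0.068. CFAP36 had 2959, 3070.3 and 3099.6 with morphine and 4148, 4097 and 4047 with saline (-0.43 ± 0.0479). None of these overlapped between the groups, and SPAG4, a nuclear envelope protein, did (172, 239.7 and 192 with morphine against 187, 173 and 148 with saline). Without the 3 SPAG genes outside the axoneme, the 14 genes of no assigned role and the transcription factors, 58 genes were left, of which 15 rose and 2 fell (12.9% and 15.0% over all tested genes), with a median log2 fold change of 0.37.

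Among the 14 genes with no assigned role, CFAP58 and CROCC2 were farthest apart. CFAP58, a protein of the sperm tail, had 52.1, 43.6 and 42.3 normalized counts in morphine libraries and 117, 113 and 100.2 in saline libraries, a log2 fold change of -1.25 ± 0.109 (SE, n = 3 libraries per group). CROCC2, a relative of the ciliary rootlet protein, had 23, 20 and 24 reads in morphine libraries and 0 in each saline library. With a floor of 3 reads in each saline library, its normalized count was at least 7.19-fold higher with morphine. CFAP157 had 103, 135 and 123 with morphine and 77.0, 74.2 and 73.8 with saline, and CFAP65 and CFAP99 were also higher in all morphine libraries (log2 fold changes 0.73 and 0.84). CFAP70, CFAP92, CFAP97, CFAP119, CFAP184, CFAP418, CFAP20DC and STK33 overlapped.

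Several extreme values come from genes near the minimum. CROCC2, CFAP77 and CFAP96, with means of 10.9, 11.4 and 13.0 normalized counts, lay just inside it, and CFAP47, DRC12 and ODAD2 (the newer symbol of ARMC4), with 8.60, 5.67 and 3.85, just outside. CROCC2, CFAP77, CFAP96, CFAP161 and DRC7 had a saline mean under 10 and passed through their morphine libraries, and SPAG17 had a morphine mean under 10 and passed through saline. DRC12 had 10, 12 and 13 reads with morphine and 0 in each saline library. CFAP95, CFAP107 and DNAAF6 had reads in morphine libraries 2 and 3 and 0 in the others. CFAP47 had 8, 0 and 24 reads with morphine and 0, 20 and 0 with saline. There were 12 of the 78 genes with a mean under 50, and the median SD on the log2 scale was 0.51 between morphine and 0.86 between saline libraries for these, and 0.15 and 0.16 for the 30 genes with a mean of 200 or more.

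The libraries of a group did not order the role classes alike. Averaged over the 78 genes, the log2 value lay above the mean of each gene by 0.27, 0.19 and 0.26 in morphine libraries and at -0.25, -0.29 and -0.19 in saline libraries. For the 9 inner arm genes the values were 0.39, 0.21 and 0.40 with morphine and -0.34, -0.44 and -0.22 with saline. The 6 outer arm genes were at 0.33 and 0.27 in morphine libraries 1 and 2 but at -0.27 in morphine library 3, below all saline libraries (-0.14, -0.14 and -0.05). Morphine library 3 had the lowest morphine values of FOXJ1, HYDIN, DNAI2, DNAH5, DNAH8 and SPAG17, and the highest of DNAH1 and DNAH3.

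**Figure D3:**
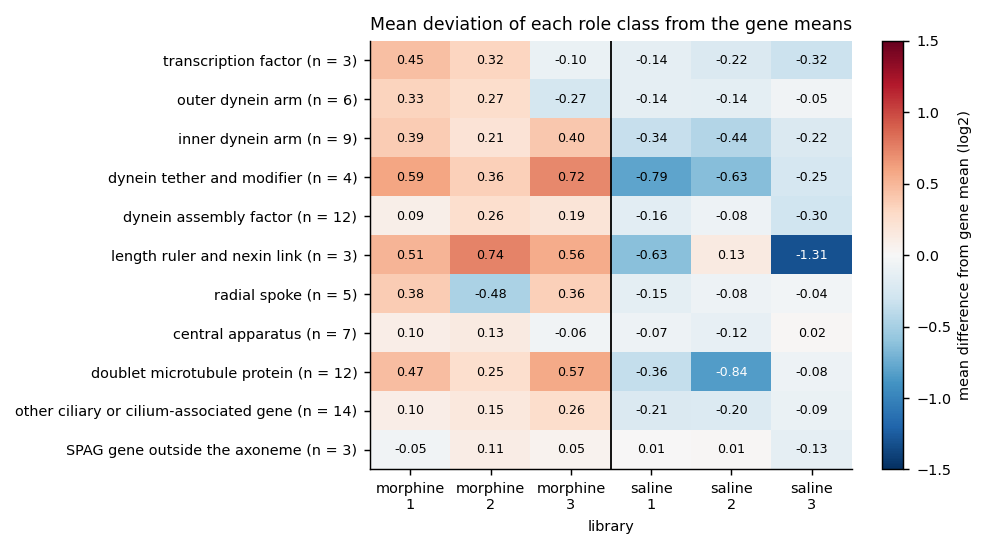
Mean difference from the gene mean (log2 scale) of each role class in each library, with the number of genes in a class. Inner arm genes are above 0 in the 3 morphine libraries and below 0 in the 3 saline libraries, whereas the outer arm class is negative in morphine library 3 and the central apparatus class lies near 0 throughout.

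Motile cilia genes outside the name rule were compared next, from a list drawn up with earlier results of these data known. The list named 129 genes, of which 92 were in the table and 78 were tested. Of these, 18 rose and 9 fell (12.9% and 15.0% over all tested genes), and the median log2 fold change was 0.24. The kinase gene STK36, required for motile cilia in mouse, had 1082, 1072 and 1063 normalized counts in morphine libraries and 619, 578 and 621 in saline libraries, a log2 fold change of 0.82 ± 0.0527 with a limma adjusted p of 0.00199. ZMYND10, a dynein assembly factor, rose (276, 275 and 276 with morphine against 206, 170.4 and 166 with saline, adjusted p = 0.0114 in limma). CCDC78, of the deuterosome on which centrioles multiply, rose by 1.03 on the log2 scale (adjusted p = 0.00366), TTC16 by 1.06 (adjusted p = 0.00489) and WDR54 by 0.46 (adjusted p = 0.00763), all in limma. UBXN10, which binds an intraflagellar transport complex, fell to 21.3, 31.8 and 20.2 with morphine, against 58.2, 68.2 and 66.4 with saline (adjusted p = 0.00798 in limma). DNAJB13, of the radial spoke, and CCDC33 were picked with their values in view. DNAJB13 fell (588, 681 and 693 with morphine, 878, 963 and 929 with saline, adjusted p = 0.0141 in limma), and CCDC33 rose (51.0, 74.4 and 62.5 with morphine, 5.92, 0 and 3.16 with saline, adjusted p = 0.0139 and, without morphine replicate 2, 0.0517). The saline mean of CCDC33 was under 10, so it met the minimum for testing through its morphine libraries. Leaving out 1 library gave fewer calls. Without morphine replicate 1, 2 or 3, 10, 6 and 9 rose and 6, 3 and 3 fell. Without saline replicate 1, 2 or 3, 16, 12 and 16 rose and 4, 3 and 5 fell. Calls over all tested genes dropped as well: 1136, 1072 and 1152 rose without morphine replicate 1, 2 or 3. Without saline replicate 1, 2 or 3, 1434, 1364 and 1497 rose, beside 2143 with all libraries.

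**Figure D4:**
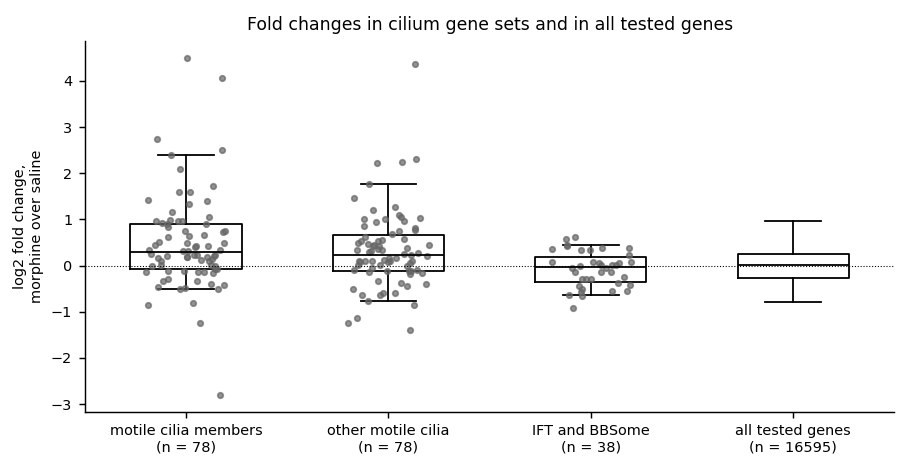
Log2 fold change, morphine over saline, for the 78 cilium genes chosen by name, 78 other motile cilia genes, 38 intraflagellar transport and BBSome genes, and all 16595 tested genes (boxes, median and quartiles; whiskers, 5th to 95th percentile; points, single genes, not drawn for all tested genes). The medians are 0.29, 0.24, -0.03 and 0.01, and the motile cilia sets spread more widely than the transport genes.

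Genes of intraflagellar transport and of the BBSome, which primary cilia need as well, moved in both directions. Of 38 tested, 8 rose and 11 fell (12.9% and 15.0% over all tested genes), and the median log2 fold change was -0.03. Among the genes that rose, WDR19 and IFT140 encode parts of the complex for transport back to the cell body. WDR19 had 1655, 1542 and 1555 normalized counts in morphine libraries and 1058, 997 and 1043 in saline libraries (log2 fold change 0.62 ± 0.0564, adjusted p = 0.00356 in limma), and IFT140 rose by 0.42 (adjusted p = 0.00744 in limma). WDR35, of the same complex, fell by 0.91 on the log2 scale (adjusted p = 0.0436 in limma). IFT88, IFT57 and IFT27, of the complex for transport to the tip, fell, while IFT172 of that complex rose by 0.34 (adjusted p = 0.0277 in limma). WDR35 and IFT172 were picked with their values in view. Of the fits with 1 library removed, WDR35 passed only with morphine library 1 or 3 removed. Its adjusted p was 0.101 with morphine library 2 removed and 0.0996, 0.117 and 0.0997 with each saline library removed in turn. IFT172 passed only with morphine library 3 removed. Its adjusted p was 0.0836 and 0.0742 with morphine library 1 or 2 removed and 0.0778, 0.0745 and 0.0724 with each saline library removed in turn. IFT88 had 719, 712 and 745 with morphine and 1117, 1231 and 1107 with saline (log2 fold change -0.67 ± 0.0632, adjusted p = 0.0038 in limma). IFT57, IFT27 and KIFAP3, a subunit of the kinesin that pulls them, had log2 fold changes of -0.54, -0.41 and -0.54 (adjusted p = 0.00404, 0.00853 and 0.00888 in limma). BBS2 rose by 0.57, and MKKS, ARL6 and BBS4 had log2 fold changes of -0.50, -0.63 and -0.38 (adjusted p = 0.00474, 0.00591, 0.00714 and 0.00961 in limma). Without morphine replicate 1, or saline replicate 2 or 3, 5 of the 38 rose, where 1136, 1364 and 1497 of all tested genes did. In the fits without morphine replicate 2 or 3, or saline replicate 1, 6 of the 38 rose.

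Genes of the multiciliated cell programme and its RFX relatives gave 7 rises and 4 falls among 21 tested of 23 in the table. Over all tested genes 12.9% rose and 15.0% fell. The summed level of the 23 was 19417 to 20044 normalized counts in morphine libraries and 17604 to 18509 in saline libraries, and without TRRAP, the gene with the most counts, the sums overlapped at 12497 to 13379 normalized counts in morphine libraries and 12076 to 12653 in saline libraries. MYB, which acts early in multiciliated cells, had 49.9, 54.5 and 64.4 normalized counts in morphine libraries and 3.95, 16.0 and 8.44 in saline libraries, a log2 fold change of 2.62 ± 0.46 with a limma adjusted p of 0.0151. The limma adjusted p of MYB was 0.0521 with morphine library 2 removed and 0.0529 with morphine library 3 removed. Its saline mean was under 10, so MYB met the minimum for testing through its morphine libraries. CCNO, a cyclin of centriole amplification, had 71.2, 61.7 and 38.4 with morphine and 23.7, 34.1 and 12.7 with saline and did not pass in limma or edgeR (adjusted p = 0.0731 and 0.055). It passed in DESeq2, in limma with an intensity trend and in the authors' deposited table (adjusted p = 0.0285, 0.0476 and 0.0495). TP73, upstream of FOXJ1 in airway cells of mouse, fell to 424, 453 and 426 with morphine, against 629, 514 and 603 with saline (adjusted p = 0.0277 in limma). With each morphine library removed in turn its adjusted p was 0.0831, 0.066 and 0.0836, and with saline library 1 or 3 removed it was 0.0702 or 0.0796. SASS6, of the centriole cartwheel, fell by 1.45 on the log2 scale, and RFX4, which astrocytes express, fell by 0.51 (adjusted p = 0.0132 and 0.0036 in limma). DEUP1 and CDC20B were below the level for testing.

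Markers of ependymal cells other than axonemal genes did not move one way. Of 6 markers that define these cells, FOXJ1 and RSPH1 were measured, CCDC153, listed under its newer symbol DRC12, was below the minimum level, and PIFO, TMEM212 and FAM216B were not analysed here. On a wider list of 16 genes tested, 4 rose and 5 fell, where 12.9% and 15.0% of all tested genes did. Their summed level was 55489 to 57817 normalized counts in morphine libraries and 61082 to 63053 in saline libraries. AQP4 carried that difference: without it the sum was 38512 to 40067 normalized counts in morphine libraries and 37623 to 38168 in saline libraries, higher in each morphine library. That higher sum rests on RARRES2 in turn, whose own mean difference between the groups is larger than that of the sum. Neither sum shows a shared direction of the list. That list includes SPAG8, which is one of the 78 genes, and AQP4 and GJB6, which are astrocyte markers. RARRES2, the chemerin gene, had 3025, 3025 and 2982 normalized counts in morphine libraries and 1269, 1174 and 1234 in saline libraries, a log2 fold change of 1.30 ± 0.0524 with a limma adjusted p of 0.00104. PROM1, a protein of membrane protrusions, fell to 701, 713 and 744 with morphine, against 1129.8, 1119 and 1173 with saline (adjusted p = 0.00273 in limma). TMEM231 and VIM rose by 0.56 and 0.29, and AQP4 and CDH2 fell by 0.48 and 0.41 (adjusted p = 0.00661, 0.0109, 0.00519 and 0.0106 in limma). TMEM190 was low, with 8.502, 12.7 and 24.02 with morphine and 3.95, 10.02 and 7.38 with saline, and did not pass (adjusted p = 0.188).

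Choroid plexus and leptomeningeal genes also differed between the groups. Of 10 choroid plexus genes tested, 2 rose and 4 fell, where 12.9% and 15.0% of all tested genes did. The summed level of the 14 in the table was 10071 to 11147 normalized counts in morphine libraries and 12052 to 12421 in saline libraries. Without SLC4A10, the gene with the most counts, the sums overlapped, at 5214 to 6447 normalized counts in morphine libraries and 5641 to 6061 in saline libraries. The sulfate carrier SLC13A4 had 745, 839 and 786 normalized counts in morphine libraries and 40.5, 52.1 and 50.6 in saline libraries, a log2 fold change of 4.03 ± 0.116 with a limma adjusted p of 0.000469. FOLR1, a folate receptor, rose (29.8, 29.1 and 19.2 with morphine, 11.8, 7.02 and 12.7 with saline, adjusted p = 0.0277). That adjusted p became 0.0831 and 0.0859 when morphine library 1 or 2 was removed, and 0.0585 and 0.0515 when saline library 1 or 2 was removed. FOLR1 did not pass in DESeq2 or edgeR either (adjusted p = 0.109 and 0.0607). KL, the klotho gene, fell to 102, 118.02 and 86.5 with morphine, against 169, 191 and 168 with saline, and the chloride channel gene CLIC6 fell to 251, 212 and 160.5 with morphine, against 663, 558 and 422 with saline (adjusted p = 0.0134 and 0.0137 in limma). SLC4A10, which cortical neurons also express, fell by 0.41 (adjusted p = 0.00632 in limma). TTR, AQP1 and KCNJ13 were not analysed here. Of 16 leptomeningeal fibroblast genes tested, 7 rose and 2 fell, where 12.9% and 15.0% of all tested genes did. Their summed level was 28168 to 29613 normalized counts in morphine libraries and 32486 to 33164 in saline libraries. ALDH1A1 made that sum lower with morphine: without it the sum was 13159 to 13748 normalized counts in morphine libraries and 12119 to 12302 in saline libraries, higher in each morphine library. ISLR rose (322, 271 and 237 with morphine, 51.3, 20.05 and 26.4 with saline, adjusted p = 0.00543 in limma), as did COL1A1, COL1A2 and CEMIP, while SLC13A3 and ALDH1A1 fell. The part of ependymal, choroid plexus or meningeal cells in the levels of the cilium genes was not tested.

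**Figure D5:**
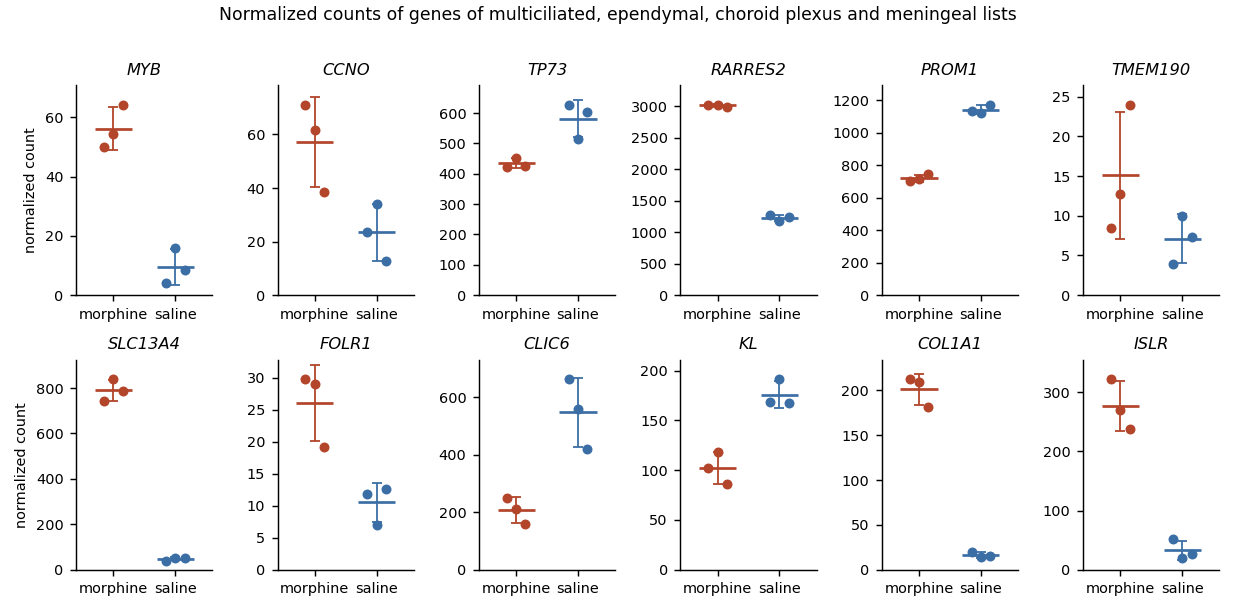
Normalized counts of 12 genes of the multiciliated, ependymal, choroid plexus and leptomeningeal lists in each library (points; bars are group means ± SD, n = 3). SLC13A4, RARRES2, COL1A1, ISLR, FOLR1, CCNO and MYB lie higher in morphine libraries, PROM1, CLIC6, KL and TP73 lower, and TMEM190 overlaps.

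In the authors' deposited table, 21 of the 78 genes were higher with morphine and 7 lower at an adjusted p under 0.05, where 16.4% and 17.7% of all tested genes were. Of the 21, 16 had also risen in limma, and of the 7, 5 had fallen. DNAH1, DNAH7, CFAP65, CFAP99, CFAP298, CFAP69 and DNAH8 passed in the deposited table but not in the main limma fit. RSPH1, SPAG8 and CFAP157 passed in the main limma fit but not in the deposited table (deposited adjusted p = 0.223, 0.051 and 0.0703). DNAH7, CFAP99, CFAP69 and DNAH8 also passed in DESeq2, edgeR and limma with an intensity trend. DNAH1, CFAP65 and CFAP298 also passed in DESeq2 (adjusted p = 0.0135, 0.0163 and 0.0170). The authors' deposited subset of larger changes held 25 of the 78 genes, 22 higher and 3 lower, and 12.5% of all tested genes. The authors' log2 fold changes in that deposited table were 1.40 for FOXJ1, 1.06 for DNAH2, 1.97 for HYDIN, 2.30 for CFAP54 and -2.89 for SPAG17.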

How the data were processed

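RNA-seq libraries of 3 morphine and 3 saline samples were analysed from 1 table of 23191 genes. Per the file headers, the authors deposited normalized counts per library with their own log2 fold change and adjusted p-value for each gene, beside a test statistic (a score, fold change over its error) that was not used. Per the submitters' processing notes, Bowtie2 2.1.0, StringTie, DESeq2 1.18.1 and hg19 were used, with no roles given. Strand use and the treatment of reads shared by related genes, such as dynein heavy chains, are not given in the sources used here. Gene symbols came from a reference table that named 15436 of 23191 identifiers (66.6%). The deposited signal was a whole number of reads divided by a factor per library: 100% of values came out whole within 0.001, and the recovered reads summed to 31238653 to 36345095 per library. On those reads DESeq2 1.42.0 and edgeR 4.0.16 were run as alternatives.

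Log2(value + 1) of genes with a mean of at least 10 was fitted by group with limma 3.58.1 in R 4.3.3, with Benjamini-Hochberg adjustment over all 16595 genes tested. A call is an adjusted p under 0.05. The scripts were tested on simulated data. Other settings were TMM and upper-quartile scaling, no filter or a mean of 50, pseudocounts of 0.5 and 5, an adjusted p of 0.01, a replicate block and each library left out. edgeR, limma with an intensity trend and list sums without the gene with the most counts were chosen after seeing the data. The members and gene lists were chosen with earlier results of these data known. Members named by rule were the transcription factors, up to 4 with the highest mean in each role class, the 8 most positive and 8 most negative fold changes and the 3 on each side of the minimum, and from each other list up to 6 genes with the smallest adjusted p, or any ependymal or choroid plexus gene. Other members, CCNO, DNAJB13, CCDC33, WDR35 and IFT172 were named after their values were seen. Floors of 3 reads cover counting error only. Promoter and protein sequences, and the genes most like FOXJ1 across libraries, are not reported.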

Additional observations from a re-analysis of the deposited data

How the results depend on the processing

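At an adjusted p under 0.01, 7 members rose, 4 other motile cilia genes rose and 1 fell, 3 transport and BBSome genes rose, and over all genes 634 rose and 898 fell. Without a filter on low values, 11 other motile cilia genes rose and 3 fell, 5 transport and BBSome genes rose, and over all genes 1363 rose and 1630 fell.

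With the replicate block, 9 members rose and 3 fell, 6 other motile cilia genes rose and 2 fell, 2 transport and BBSome genes rose and 5 fell, and over all genes 681 rose and 896 fell. Deviations of same-numbered samples correlated at -0.0563, -0.0039 and -0.0284, so no deviation shared by number was seen. Whether the libraries were handled in numbered pairs is not settled by these values.

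Leaving out 1 library gave 12 to 16 members that rose and 4 to 7 that fell. It gave 6 to 16 other motile cilia genes that rose and 3 to 6 that fell. Of the transport and BBSome genes, 5 to 6 rose and 8 to 11 fell. Over all genes 1072 to 1497 rose and 1464 to 1684 fell.

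The members' median log2 fold change was 0.31 in DESeq2 and 0.31 in edgeR, 0.22 with a mean of at least 50, and 0.27 to 0.37 with 1 library left out. Fold changes of several members with no call changed sign with 1 library left out. DNAH5 ran between -0.0696 and 0.25, CFAP70 between -0.13 and 0.12 and RFX2 between -0.13 and 0.0178. RFX3 ran between -0.19 and 0.29, CFAP44 between -0.12 and 0.17, DNAAF2 between -0.12 and 0.0046 and CFAP61 between -1.62 and 0.77. The same held for CFAP52 (-0.14 to 0.30), CFAP92 (-0.06 to 0.36) and DNAAF4 (-0.10 to 0.42). It also held for DNAAF10 (-0.17 to 0.16), CFAP418 (-0.23 to 0.04) and CFAP20DC (-0.28 to 0.06). CFAP44 was at 0.0118 with upper-quartile scaling. CFAP61 was at 0.0313 in DESeq2, 0.0240 in edgeR and 0.0295 in the authors' deposited table. The causes were not tested. Low reads limit CROCC2, CFAP161 and SPAG17.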
